A study of Isodiametra pulchra with 2 samples.

Results

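The most widely detected transcripts of *Isodiametra pulchra* hatchlings are described here, as 150 of the 23786 features to which reads were assigned. The features were chosen from the measured counts. Within each of 2 droplet libraries, features were ranked by the percent of called barcodes that held at least 1 UMI (unique molecular identifier, a tag that marks 1 captured RNA molecule). A barcode was called as a cell at 166 UMIs or more in library 1 and at 1027 or more in library 2. The 150 features with the best value of the worse of their 2 ranks were taken. The percentages of barcodes below therefore describe the choice and carry no test.

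*Isodiametra pulchra* is a small marine acoel worm. Both libraries held cells of wild-type hatchlings fed diatoms, dissociated with collagenase and captured with droplet kits that read the 3′ end of polyadenylated RNA. They form 1 group, named library 1 and library 2 after their run numbers, so the design holds no contrast between conditions. The labels do not say whether the libraries came from separate animals or cultures, so the spread between them may be technical. Kit versions 2 and 3 are both named for the series, and the deposited list has 737280 barcodes with the number of library 1 and 6794880 with that of library 2. Kit, run and depth cannot be told apart in any difference between the libraries.

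Transcripts found in most cells of an animal usually serve processes that every cell runs, such as protein synthesis, energy metabolism and the cytoskeleton. In droplet sequencing a second property brings a transcript into many barcodes. RNA freed from broken cells is captured in every droplet, whether or not it holds a cell, and abundant transcripts of 1 cell type can reach barcodes of all others that way. Features carry identifiers of a transcriptome assembly in which the same component number marks related assembled sequences. No gene names or sequences are paired with the identifiers in the sources used here, so no role is given to any feature and cells are called by cluster number.

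Library 1 held 6581711 UMIs and library 2 held 34060611. The 4483 called barcodes of library 1 had a median of 288 UMIs, and the 3275 of library 2 had a median of 1520. No called barcode sequence occurred in both libraries (0 shared). Most UMIs lay in smaller barcodes, since the called ones took 26.1% in library 1 and 20.6% in library 2.

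The name "detected in most cells" held for few of the 150 features. In library 1 the median feature of the set was found in 18.9% of called barcodes, with a range of 11.3% to 88.4%. In library 2 the median was 42.7%, with a range of 31.2% to 100%. These values stand far above the medians over all 23786 features, 0.201% and 1.36%. Still, 18 of the 150 reached 50% of called barcodes in library 1, 50 reached it in library 2 and 16 did so in both. Over all features, 18 reached 50% in library 1 and 82 in library 2.

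**Figure D1:**
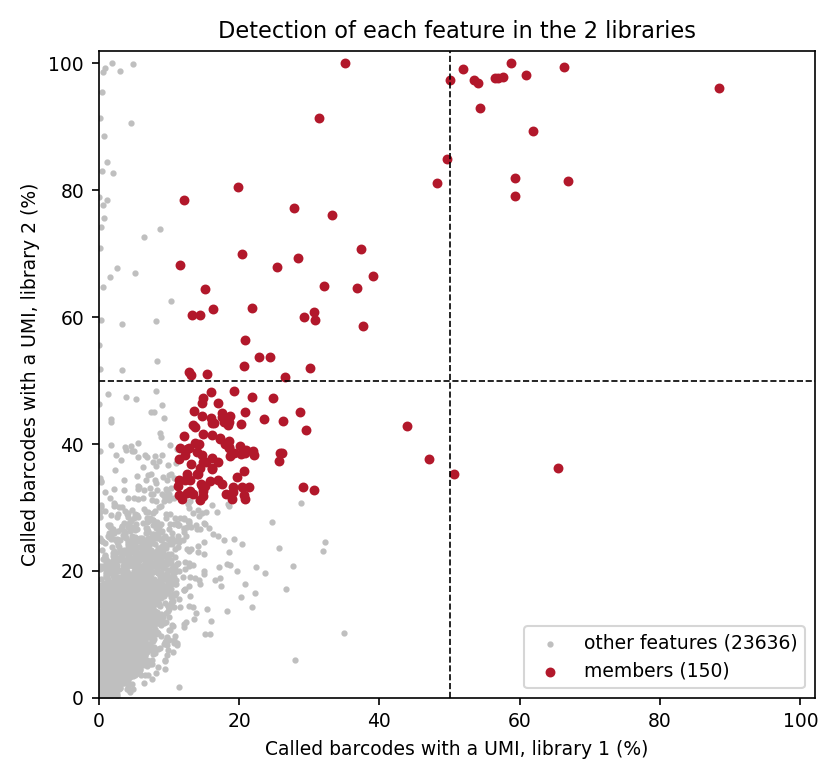
Percent of called barcodes with at least 1 UMI for every feature, library 1 on the x axis and library 2 on the y axis. Red points are the 150 chosen features, grey points the other features, and dashed lines stand at 50%; 16 red points lie above both lines.

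At the limit of the rule the values were close together. The last feature inside, TRINITY_DN24639_c0_g6, was found in 14.5% of called barcodes of library 1 and 31.2% of library 2. The first outside, TRINITY_DN25838_c0_g1, was found in 14.2% and 31.2% and had the same worse rank, 261, so that feature order alone separated them. The 5 features just inside ranged from 11.3% to 20.9% in library 1 and from 31.2% to 33.3% in library 2. The 5 just outside ranged from 11.04% to 28.8% and from 30.7% to 39.2%. A ranking in library 1 alone would have kept 107 of the 150, and one in library 2 alone 95.

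Detection moved with depth. Called barcodes were split into 4 bins of nearly equal size by their totals. In the bin with the fewest UMIs of library 1 (166 to 207) the median feature of the set was found in 10.9% of barcodes, and in the bin with the most (447 to 10385) in 34.1%. In library 2 the same medians were 32.7% (1027 to 1206 UMIs) and 60.3% (2254 to 20536 UMIs). The number of the 150 features at 50% or above went from 5 to 30 between those bins in library 1 and from 35 to 128 in library 2. With every called barcode thinned to 166 UMIs, the median was 9.64% in library 1 and 6.12% in library 2, and 1 feature stayed at 50% in both libraries.

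Every called barcode held some of the features. A called barcode of library 1 held between 8 and 144 of the 150, with a median of 33. In library 2 it held between 27 and 149, with a median of 71. The whole set took 20.98% of the UMIs of called barcodes in library 1 and 34.4% in library 2. The 10 features of the set with the most UMIs took 7.39% and 24.1% of the UMIs, so that in library 2 most of the share of the set lay in few features. Most of the set was found as few molecules. Where a feature was present, its mean count per barcode had a median over the set of 1.27 UMIs in library 1 and 2.004 in library 2.

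The feature with the best worse rank, TRINITY_DN32615_c2_g3, was found in 66.4% of called barcodes of library 1 (exact 95% Clopper-Pearson interval 65.0% to 67.7%) and in 99.4% of library 2 (99.1% to 99.6%). Such intervals cover counting error only. TRINITY_DN31732_c1_g3 came next, with 58.8% and 100%. Its level was 5836 CPM (counts scaled to a total of 1e6 UMIs) in the summed called barcodes of library 1 and 79811 CPM in those of library 2, where it alone took 7.98% of the UMIs. TRINITY_DN26402_c9_g1 was the most widely found feature of library 1, at 88.4% (87.5% to 89.4%), and reached 96.1% (95.4% to 96.7%) in library 2. Of the 10 features with the best worse rank, 3 belonged to component TRINITY_DN32615.

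Assembly components linked some of the features. There were 7 components with more than 1 of the 150 features, and they held 16 features. All 4 features of component TRINITY_DN32615 were in the set, and the other 6 components (TRINITY_DN23027, TRINITY_DN26402, TRINITY_DN28161, TRINITY_DN31066, TRINITY_DN31152 and TRINITY_DN32540) gave 2 each. Of the 150 features, 112 (74.7%) came from a component with more than 1 feature, beside 66.5% of all features. How reads shared by such related sequences were counted is not given in the sources used here, so the levels of single features of a component are uncertain.

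Free RNA was measured in droplets taken as empty, the barcodes within 20% of the most common total among small barcodes. That total was 59 UMIs in library 1 and 324 in library 2, and 41855 and 34449 barcodes fell within the window. The set took 20.1% of the UMIs of empty droplets in library 1 and 27.7% in library 2, beside 20.98% and 34.4% in called barcodes. Summed empty droplets therefore carried nearly as large a share of these features as called barcodes did in library 1, and a smaller share in library 2.

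The median feature of the set had 0.873 of its empty-droplet CPM in the called barcodes of library 1 and 0.676 in those of library 2. Over 11114 features with at least 10 UMIs in both kinds of barcode in both libraries, the medians were 1.04 and 1.08. In both libraries, 99 of the 150 features (66%) had a lower CPM in called barcodes than in empty droplets, beside 29.1% of all 11114. The rule ranked detection in called barcodes, so the fold was not used directly, but both share those barcodes and no test is given. A further 13 features lay on opposite sides of 1 in the libraries, and 38 lay above 1 in both. No share over all features is given for these counts.

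TRINITY_DN26402_c9_g1 shows the pattern of the 99. It held 8924 CPM in called barcodes and 13405 CPM in empty droplets of library 1, a fold of 0.666. In library 2 it held 4287 and 7023 CPM, a fold of 0.61. Thinned to the same 48 UMIs, it was found in 34.0% of called barcodes and 47.0% of empty droplets of library 1, and at 260 UMIs in 55.4% and 81.8% in library 2. The feature was thus found less often in called barcodes than in empty droplets of the same depth in each library. The lowest values by the lower of the 2 folds belonged to TRINITY_DN24689_c1_g2 (0.447 in library 1 and 0.99 in library 2), TRINITY_DN31317_c0_g4 (0.655 and 0.498) and TRINITY_DN23918_c3_g5 (0.771 and 0.499).

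TRINITY_DN26935_c2_g1 was found in 100% of the called barcodes of library 2 (interval 99.9% to 100%) and in 35.2% of those of library 1 (33.8% to 36.6%). At 260 UMIs it was found in 98.3% of called barcodes and 99.9% of empty droplets of library 2, and at 48 UMIs in 6.05% and 6.91% in library 1. Its CPM in called barcodes was 0.897 of that in empty droplets in library 1 and 0.676 in library 2. Detection in every called barcode of library 2 was thus matched by detection in nearly every empty droplet.

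A small group stood above the empty droplets, at a share not far from that of all features. Called barcodes held over 1.5 times the empty-droplet CPM in both libraries for 20 of the 150 features (13.3%), beside 10.2% of all 11114. The count was 6 at a limit of 2 times, and 8 when the percent of barcodes at equal depth was compared in place of CPM. No share over all features is given for these other limits, so they do not set the 150 apart. The folds of the 20 fell into 2 ranges, and the split below was made after the values were seen. Of the 150, 24 had their highest level over cell clusters of library 1 in cluster 4. Among the 20 were 16 of these, with folds over empty droplets of 1.67 to 2.06 in library 1 and 1.79 to 2.37 in library 2. The other 4 of the 20 had folds of 3.67 to 7.27 and 9.91 to 12.3. With at least 500 UMIs per called barcode, the lower fold of TRINITY_DN33350_c2_g2 was 2.31 in place of 3.67.

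**Figure D2:**
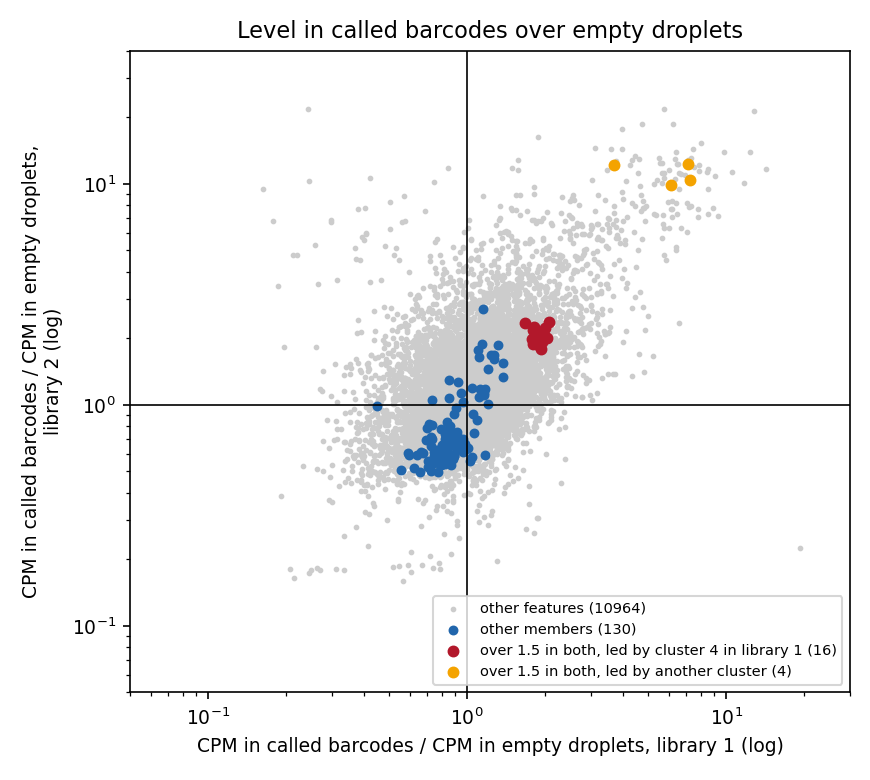
CPM in called barcodes divided by CPM in empty droplets for 11114 features, library 1 on the x axis and library 2 on the y axis, both on log scales. Grey points are features outside the set, blue points 130 of the 150, red points the 16 over 1.5 in both that were led by cluster 4 in library 1 (1.67 to 2.06 in library 1) and orange points the other 4 (3.67 to 7.27); lines mark equal levels.

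The 4 features with the largest folds over empty droplets were TRINITY_DN26384_c11_g1, TRINITY_DN33302_c4_g1, TRINITY_DN32842_c5_g3 and TRINITY_DN33350_c2_g2. Together they took 0.316% of the UMIs of called barcodes and 0.0606% of those of empty droplets in library 1. In library 2 the shares were 0.318% and 0.0283%. TRINITY_DN26384_c11_g1 was found in 20.4% of called barcodes of library 1 and 69.98% of library 2. At equal depth it was found in 3.55% of called barcodes and 0.43% of empty droplets of library 1, and in 28.1% and 2.93% in library 2. TRINITY_DN33302_c4_g1 was found at equal depth in 2.45% of called barcodes and 0.301% of empty droplets of library 1, and in 9.19% and 0.749% in library 2.

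The detection of these 4 was set against that expected if every called barcode held each feature in proportion to its depth. The barcodes found were between 0.909 and 0.975 of the number so predicted in library 1, and between 0.797 and 0.92 in library 2, beside medians of 0.944 and 0.853 over the set. All 4 differed among clusters (edgeR quasi-likelihood F-test, largest Benjamini-Hochberg adjusted p = 0.00844), with highest-to-lowest folds in library 2 of 3.57 to 5.25. In library 1 the folds of 3 of them were 6.79 to 9.38, and TRINITY_DN26384_c11_g1 ranged from 142 CPM, a sum of 3 UMIs, to 1724 CPM. In edgeR, TRINITY_DN26384_c11_g1 was no longer called with at least 500 UMIs per barcode (adjusted p = 0.103), nor was TRINITY_DN33302_c4_g1 with at least 50 cells per cluster and library (adjusted p = 0.109). Their leading clusters were not the same. TRINITY_DN33350_c2_g2 and TRINITY_DN32842_c5_g3 were highest in cluster 2 in both libraries. TRINITY_DN26384_c11_g1 was highest in cluster 14 of library 1 and cluster 15 of library 2, and TRINITY_DN33302_c4_g1 in clusters 18 and 17.

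To compare cells without using the 150 features, clusters were made from other variable features, with the barcodes of the highest doublet scores removed. Of 30 clusters, 23 had at least 20 cells in each library. Counts were summed per library and cluster, and the libraries served as the 2 replicates of each cluster. Adjusted p-values below come from edgeR's quasi-likelihood F-test over all clusters, with library as a block and Benjamini-Hochberg adjustment over 4824 features. All 150 features passed the low-count filter, and 87 (58%) were called at an adjusted p under 0.05, beside 55.3% of all 4824. The share called was close to that of all features tested in this fit, but the sets were not filtered alike. The 2000 variable features used for clustering were left out of the test, whereas the 150 were kept whatever their variability. Nor were the shares close in every fit. Without the library as a block, 29 of the 150 (19.3%) were called beside 33.3% of all. With DESeq2's likelihood ratio test, 66.7% were called beside 52.9%.

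The median feature of the set differed 6.77-fold between its highest and lowest cluster in library 1 and 4.59-fold in library 2, beside 6.61-fold and 7.603-fold over all features tested. Cluster sums under 3 UMIs were set to 3 for these folds, which touched 13 of the 150 in library 1 and 0 in library 2. The same cluster was highest in both libraries for 47 features of the set (31.3%), beside 27.9% of all. Across the 23 clusters, log levels of the 2 libraries correlated with a median r of 0.62 over the set and of 0.31 over all features tested. The clusters were made from both libraries jointly and both sets differ in UMIs per feature. Variable features used for clustering were also left out of all features tested, while none of the 150 was. These values are therefore a description.

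The groups by empty droplets differed in these calls. All 20 features above empty droplets were called among clusters, 44 of the 99 below empty droplets (44.4%) and 23 of the remaining 31 (74.2%). Over all features tested, 55.3% were called, and no share is given for all features above or below empty droplets. Median detection also differed, at 29.9% and 80.8% of called barcodes in libraries 1 and 2 for the 20. For the 99 it was 18.6% and 40.5%, and the part of detection in the calls was not tested. Median cluster folds were 29.7 in library 1 and 4.88 in library 2 for the 20, and 5.88 and 4.4 for the 99.

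The 16 features above empty droplets that were highest in cluster 4 of library 1 were then summed. Their high level in that cluster is what chose them, so it is given as a description. They took 6.28% of all UMIs of called barcodes in library 1 and 15.02% in library 2, beside 3.41% and 7.02% in empty droplets. Over clusters of library 1, their share of UMIs was lowest in cluster 5 (1.34%) and highest in cluster 4 (34.5%), and the median cluster had 4.80%. In library 2 the lowest share was 5.23% in cluster 15 and the highest 24.8% in cluster 12, while cluster 4 had 23.4% and the median cluster 9.42%. Cluster 4 held 34 cells of library 1, with a median of 636.5 UMIs, and 454 of library 2, with a median of 1785. Cluster 12 held 56 and 151 cells.

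**Figure D3:**
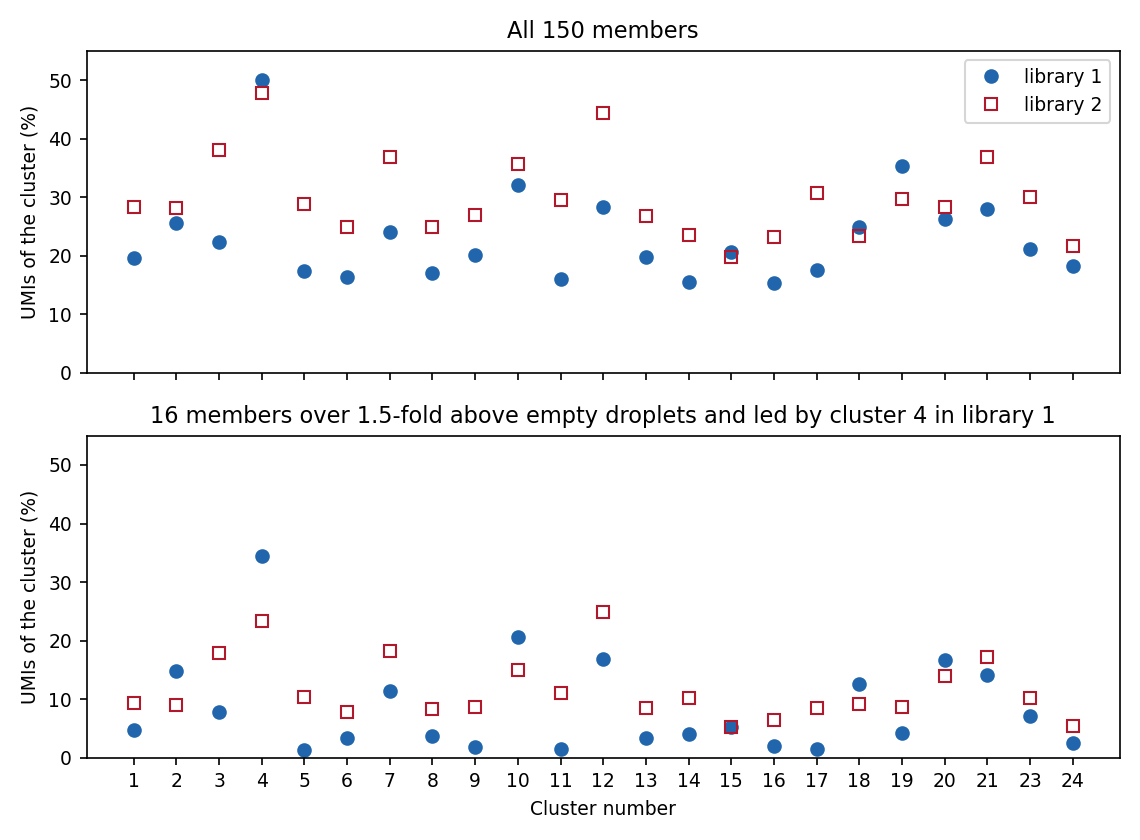
Percent of the UMIs of each cluster held by all 150 features (top) and by the 16 above empty droplets that were chosen for being highest in cluster 4 of library 1 (bottom), by cluster number; filled circles are library 1 and open squares library 2, 1 value per cluster and library. In the bottom panel cluster 4 stands highest in library 1 (34.5%) and clusters 12 (24.8%) and 4 (23.4%) in library 2.

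All 16 were called among clusters (edgeR, largest adjusted p = 2.32e-11). Cluster sums of library 1 entered both the choice of the 16 and the test, so these calls are a description only. Without the library as a block, edgeR values are given here only for the 14 that belong to the lists of named features described under processing. Of these 14, TRINITY_DN32615_c2_g2 (adjusted p = 4.96e-05) and TRINITY_DN31066_c0_g4 (adjusted p = 0.0435) were called. The others of the 14 were not (adjusted p = 0.304 or more). TRINITY_DN32615_c2_g3 had 58489 CPM in cluster 4 and 1932 CPM in cluster 5 of library 1, a fold of 30.3. In library 2 it had 46096 CPM in cluster 12 and 9222 CPM in cluster 24, a fold of 4.998. Folds between highest and lowest cluster were 19.4 to 65.7 over the 16 in library 1, and 4.22 to 5.91 in library 2. In library 2 the highest cluster was cluster 4 for 8 of them and cluster 12 for the other 8. The spread between clusters was thus larger in library 1 for each of the 16. The 16 were chosen by their highest cluster in library 1, so the libraries are not compared on equal terms. The lowest cluster sum of library 1 was 3 UMIs for TRINITY_DN32615_c2_g2. The difference between single libraries was not tested.

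Over clusters the 16 varied less in their proportions among themselves than in level. The coefficient of variation over clusters of each feature's CPM had a median of 0.974 in library 1 and 0.447 in library 2. Expressed as a share of the summed UMIs of the 16, it had a median of 0.151 and 0.116. The other 4 above empty droplets had lower values as shares of their own sum too. Their medians went from 0.563 to 0.255 in library 1 and from 0.341 to 0.119 in library 2. The 16 were chosen for a shared leading cluster in library 1, and their proportions were not tested. Within the group were all 4 features of TRINITY_DN32615 and both of TRINITY_DN31152, TRINITY_DN31066 and TRINITY_DN28161, so 10 of the 16 share a component with another. Without the cells of cluster 4 their folds over empty droplets were 1.57 to 1.89 in library 1 and 1.51 to 2.02 in library 2.

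The 16 ranged from the most to some of the least detected of the set. In library 1 they were found in 11.5% to 66.4% of called barcodes, and in library 2 in 39.5% to 99.4%. Their detection was below the prediction from depth in library 1, at 0.638 to 0.79 of the predicted number of barcodes, and at 0.79 to 0.994 in library 2. Within called barcodes the summed share of the 16 had a median of 2.31% and a highest value of 76.6% in library 1, and 9.44% and 60.5% in library 2. Empty droplets had medians of 2.04% and 5.83%. The medians were thus close in library 1, but they were not taken at equal depth. Called barcodes there had a median of 288 UMIs and empty droplets 59, so the share of a single empty droplet is coarse. Upper quartiles in library 1 were 6.28% in called barcodes and 4.62% in empty droplets, and in library 2 18.2% and 9.20%.

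**Figure D4:**
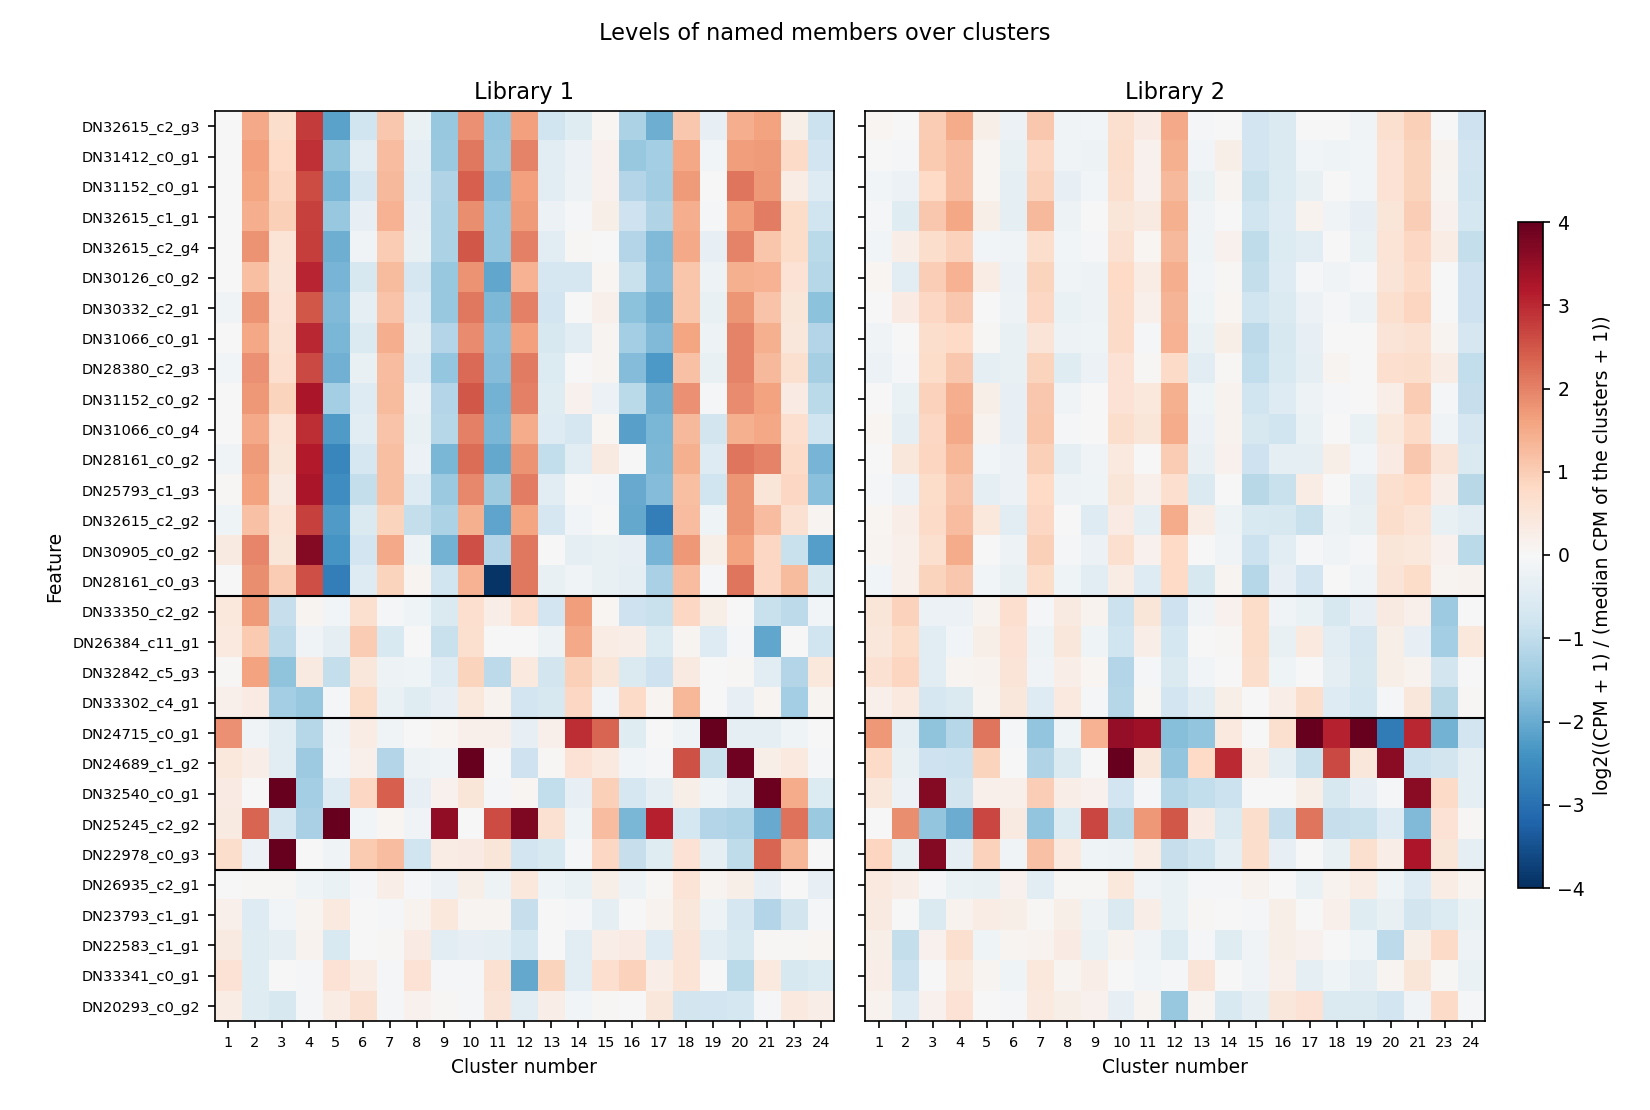
Level of 30 named features in each compared cluster as log2((CPM + 1) / (median CPM of the clusters + 1)), library 1 left and library 2 right, with colours limited at 4 in either direction. Blocks from top to bottom are the 16 features chosen for being highest in cluster 4 of library 1 and above empty droplets, the other 4 above empty droplets, the 5 with the largest and the 5 with the smallest cluster folds; the top block is high in cluster 4 of library 1 by its choice, and TRINITY_DN26935_c2_g1 in the bottom block stays between 1.84-fold and 1.91-fold from lowest to highest.

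Other features of the set had large folds between clusters. TRINITY_DN24715_c0_g1 had 237018 CPM in cluster 19 of library 1 and a median of 3172 CPM over clusters. In library 2 it had 67857 CPM in cluster 19 and a median of 1077 CPM. The folds between highest and lowest cluster were 166 and 443 (adjusted p = 1.68e-29), the largest of the set in each library. Cluster 19 held 74 cells of library 1 and 42 of library 2. One barcode held 1606 UMIs of it in library 1 and one held 3036 in library 2, the largest entry of the matrix.

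The same feature was found in 65.4% of called barcodes of library 1 and 36.3% of library 2, although its median count where found was 2 UMIs and 1 UMI. At equal depth it was found in 17.6% of called barcodes and 35.4% of empty droplets of library 1, and in 10.4% and 25.9% in library 2. Its summed CPM in called barcodes was nonetheless 1.31 and 1.87 times that in empty droplets. It was thus found in fewer called barcodes than empty droplets of the same depth, while a few called barcodes held very high counts.

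The next largest cluster folds by the lower of the libraries also belonged to features with 1 leading cluster in both. TRINITY_DN24689_c1_g2 was highest in cluster 10, with 13682 CPM in library 1 and 13018 CPM in library 2, 44.2-fold and 53.2-fold above its lowest cluster (adjusted p = 2.06e-42). TRINITY_DN32540_c0_g1 and TRINITY_DN22978_c0_g3 were highest in cluster 3. The first had 8853 and 4042 CPM there (57.2-fold and 28.5-fold, edgeR adjusted p = 1.57e-46). The second had 8376 and 5272 CPM (62.2-fold and 23.9-fold, edgeR adjusted p = 1.44e-42). Their lowest cluster sums in library 1 were 4 and 5 UMIs, and that of TRINITY_DN24689_c1_g2 was 8, so these library 1 folds are uncertain. TRINITY_DN25245_c2_g2 was highest in cluster 5, with 6359 CPM beside a median of 384 CPM over clusters in library 1, and 7056 beside 1104 CPM in library 2 (adjusted p = 2.32e-37). All 5 features had the same highest cluster in both libraries.

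Detection was also compared with the prediction from depth, without clusters. If each called barcode drew a feature at its share of the library, the median feature of the set would have been found in slightly more barcodes than observed: the observed number was 0.944 of the predicted in library 1 and 0.853 in library 2. Over 11732 features with at least 10 UMIs in each library the medians were 0.975 and 0.921. Below 0.8 in both libraries were 13 of the 150 features, beside 5.95% of all features. The set had median levels of 631 CPM in library 1 and 403 CPM in library 2, beside 41.4 and 29.1 CPM for the 11732 features. Neither comparison was made at matched levels. TRINITY_DN22978_c0_g3 was found in 14.9% of called barcodes of library 1 where 30.9% were predicted, and in 47.3% of library 2 where 79.0% were. TRINITY_DN24715_c0_g1 was found in 36.3% of library 2 where 99.2% were predicted.

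**Figure D5:**
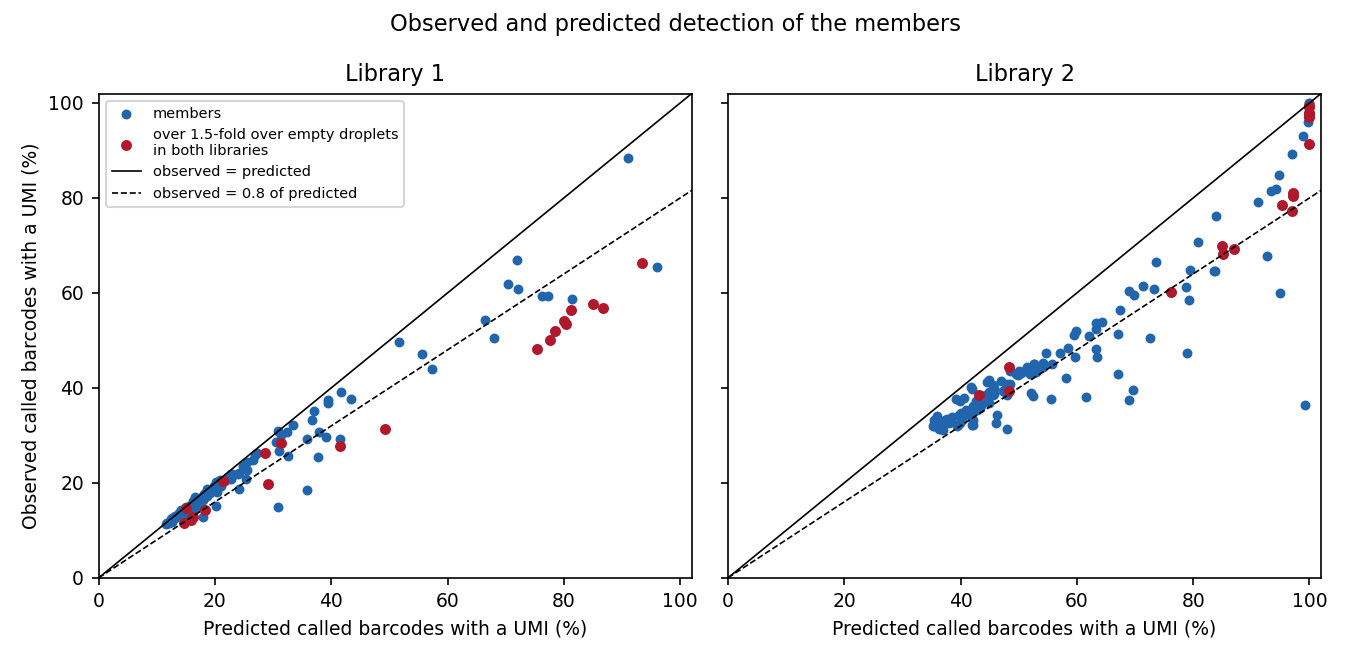
Observed percent of called barcodes with a UMI (y axis) against the percent predicted from the feature's share of UMIs and each barcode's total (x axis) for the 150 features, library 1 left and library 2 right. The solid line marks equality and the dashed line 0.8 of the prediction; red points are the 20 features over 1.5-fold above empty droplets, and 13 of the 150 lie under the dashed line in both libraries.

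The 5 features with the smallest folds, by the lower of the libraries, were not called in edgeR. TRINITY_DN26935_c2_g1 ranged 1.84-fold over clusters of library 1, from 1090 to 2005 CPM, and 1.91-fold in library 2, from 20819 to 39716 CPM. Its adjusted p was 0.805, from edgeR. TRINITY_DN22583_c1_g1, found in 49.6% of called barcodes of library 1 and 84.9% of library 2, ranged 2.34-fold and 3.49-fold (adjusted p = 0.471). TRINITY_DN23793_c1_g1 ranged 3.11-fold and 2.13-fold (adjusted p = 0.39), and TRINITY_DN20293_c0_g2 2.61-fold and 4.84-fold (adjusted p = 0.55). TRINITY_DN33341_c0_g1 ranged from 96.8 CPM, a sum of 3 UMIs, to 756 CPM in library 1 and 2.59-fold in library 2 (adjusted p = 0.543). The library 2 fold of TRINITY_DN20293_c0_g2 was thus above the median of the set. These are edgeR values, and a p above the threshold does not show equal levels. With DESeq2's likelihood ratio test, TRINITY_DN26935_c2_g1 (adjusted p = 1.67e-08) and TRINITY_DN22583_c1_g1 (adjusted p = 5.01e-05) passed the threshold, as did the first in edgeR without the low-count filter (adjusted p = 0.00083).

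Some clusters led several features in both libraries, including features already described. Over all clusters this held for 31.3% of the set, beside 27.9% of all features tested. The share of all features led by each single cluster is not given, so the counts below do not set the 150 apart. Cluster 16 led 11 features in both libraries, of which 3 were called and 10 lay below empty droplets in both. Cluster 4 led 14 in both, all called. Cluster 23 led 6, of which 3 were called, and cluster 3 led 4, all called and all below empty droplets. Cluster 16 held 48 cells of library 1 and 101 of library 2, and cluster 23 held 34 and 32. For all 150 features together, the share of a cluster's UMIs ran from 15.4% in cluster 16 to 49.97% in cluster 4 of library 1, and from 19.8% in cluster 15 to 47.7% in cluster 4 of library 2.

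The median ratio of the set between the libraries lay near that of all features. Ratios over 2-fold toward library 1 were less frequent in the set. The median log2 ratio of CPM, library 2 over library 1, was −0.53 over the 150 and −0.65 over 11732 features. There is 1 library at each depth, so no ratio was tested. Direction depended on the scaling. With CPM, 117 of the 150 (78%) were higher in library 1, beside 72.0% of all features. TMM scaling raised every log2 ratio by 0.37 and left 95 (63.3%) higher in library 1, beside 60.7% of all. Scaling to the median feature raised it by 0.51 and left 78 (52%), beside 55.9% of all. More than 2-fold higher in library 1 by CPM were 33 of the 150 (22%), beside 36.3% of all, and 12 (8%) were more than 2-fold higher in library 2, beside 9.86% of all. With TMM these counts were 14 and 20, beside 22.3% and 15.2% of all features. Scaled to the median feature they were 9 and 21, beside 18.4% and 17.3% of all. The balance of large ratios in the set thus turned with the scaling, while over all features it stayed toward library 1.

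Features with the largest ratios kept their direction under all 3 scalings. TRINITY_DN26935_c2_g1 had 1348 CPM in library 1 and 28885 CPM in library 2, a log2 ratio of 4.42 by CPM. TRINITY_DN31732_c1_g3 followed with 3.77 and TRINITY_DN30126_c0_g2, with 5241 and 23262 CPM, with 2.15. In the other direction, TRINITY_DN27273_c0_g1 had 3710 CPM in library 1 and 295 CPM in library 2, a log2 ratio of −3.65. TRINITY_DN3116_c0_g1 followed with 2513 and 457 CPM and −2.46. Of the 16 features above empty droplets that were chosen by cluster 4 of library 1, 14 were higher in library 2 by CPM and by TMM, and 15 when scaled to the median feature. Cluster 4 itself had 34 cells from library 1 and 454 from library 2, and the part of this in the ratios was not tested.

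TRINITY_DN27273_c0_g1 also varied over clusters in each library. It was highest in cluster 9 of library 1 with 15162 CPM and in cluster 13 of library 2 with 1492 CPM. The folds between highest and lowest cluster were 28.4 and 18.4 (adjusted p = 3.64e-31, edgeR). Its levels over the 23 clusters correlated between the libraries at r = 0.95, although the libraries differed in level.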

How the data were processed

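The authors deposited raw UMI counts. The matrix was made with Cell Ranger 3.0.2, per the submitters' processing notes. The matrix pools both libraries, which were told apart by the run number that follows each barcode, and it lists all barcodes of the kits. It has 0 columns of other samples. Aligner settings, reference and any equalising of depth are not given in the sources used here. The 150 features and all lists were chosen with earlier results of these data known.

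Barcodes were called with the thresholds of the rule, which equal the 99th percentile of the 3000 largest totals divided by 10 in each library. Doublets were kept, as the rule does, except for clustering. There, the automatic threshold of Scrublet (scanpy 1.11.5) marked 0% of called barcodes of library 1 and 0.0305% of library 2 and was not used. Instead the highest scores were removed at 0.8% per 1000 called barcodes (161 and 86 barcodes). Removed barcodes had medians of 249 UMIs in library 1 and 1756.5 in library 2, beside 289 and 1514 in those kept. Whether they were doublets was not tested. Log values of counts per 10000 UMIs were taken, and the 2000 most variable features outside the 150, centred and scaled by library, gave 30 principal components, 15 nearest neighbours and Leiden clusters at resolution 1.0 (leidenalg 0.10.2), numbered from the largest. Counts summed per library and cluster were tested with edgeR 4.0.16 (R 4.3.3), TMM normalisation, library as a block and the default low-count filter, on features outside those used for clustering. DESeq2 1.42.0 was an alternative. The test and the thinning of counts were tested on simulated data.

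Intervals are exact at 95% and cover counting error only. Barcodes of both kinds were thinned to 48 UMIs in library 1 and to 260 in library 2 to compare detection with empty droplets.

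Named features are the 10 with the best worse rank, 5 on each side of the limit, the 5 with the largest and smallest cluster folds, folds over empty droplets and library ratios, the 5 farthest below the predicted detection, and those sharing a component. Other features were named after their values were seen. Alternatives were other calling thresholds, doublet removal, thinning, rankings, scalings, empty-droplet windows, clustering settings, tests and leaving out each library.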

Additional observations from a re-analysis of the deposited data

How the results depend on the processing

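The ranking kept 126 to 150 of the 150 features under other calling thresholds, doublet removal, ranking by CPM and thinning, and 95 to 107 when either library was left out. With at least 500 UMIs in both libraries, the set held 22.2% of UMIs of called barcodes in library 1 and 32.4% in library 2, the median feature was found in 35.6% and 29.3% of barcodes, and the median log2 ratio was −0.46. With thresholds multiplied by 1.5 the shares were 21.0% and 36.6% and the medians 24.0% and 51.4%. With the barcodes of the highest doublet scores removed, the share in library 2 was 34.5%. The medians of detection under these settings were chosen after seeing the data. The log2 ratio was −0.15 with TMM and −0.022 scaled to the median feature. After thinning, 1 feature reached 50% in both libraries, and in single libraries 18 to 50 did. Features above empty droplets numbered 8 by percent of barcodes at equal depth, 38 at a fold above 1, 6 at a fold above 2 and 20 to 29 in single libraries. These counts are given without shares over all features. Detection below the prediction held for 32 at a limit of 0.9 and for 30 to 31 in single libraries.

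Features called among clusters numbered 69 to 100 (46% to 66.7%) under the other clustering settings, normalisation, filter and DESeq2, beside 34.0% to 58.9% of all features in those fits, and 82 with clusters and sums from different UMIs. Without cluster 4, an alternative chosen after seeing the data, 84 were called and the 20 above empty droplets numbered 20 again. Without the library as a replicate block 29 were called (19.3%, beside 33.3% of all). The median cluster fold, as the geometric mean of both libraries, was 5.57 and ranged from 4.18 to 5.84, with 4.59 to 6.77 in single libraries. Among adjusted p-values of named features, 575 of the alternatives stayed on the same side of the threshold, 14 passed it and 35 no longer did. TRINITY_DN26402_c9_g1, not called at an adjusted p of 0.108, passed at 500 UMIs, without the low-count filter and with DESeq2 (adjusted p = 0.0325, 3.92e-05 and 5.72e-13), and TRINITY_DN33302_c4_g1 did not pass at 50 cells per library or without the filter (0.109 and 0.31).

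Depth limits the values of library 1, where 82% of the features had at most 2 UMIs on average in the barcodes that held them. P-values do not include the uncertainty of the clusters, which come from the same cells. Empty droplets were taken from their total alone.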
